A study of Mus musculus with 3 samples.

Results

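Phosphoinositide 3-kinase (PI3K) and the kinase AKT form a signalling route that is described here through 9 of its genes in mouse B cell lymphomas. The genes were chosen by symbol: the catalytic subunits Pik3ca, Pik3cb, Pik3cd and Pik3cg, the regulatory subunit Pik3r1, the adaptor Pik3ap1, the lipid phosphatase Inpp5d, and the kinases Akt1 and Akt2. Each symbol matched 1 of the 37646 genes listed in the deposited tables. The samples were 3 splenic lymphomas of pBIC mice on the C57BL/6 strain, 1 library each, called tumours 1, 2 and 3. Every tumour carried the same alleles, which the labels write p53F/F, Blimp1F/F, IKK2castopF/stopF and Cg1Cre/+: floxed Trp53, floxed Prdm1 (the gene of Blimp1), an IKK2 allele behind a floxed stop, and Cre driven from the Cg1 locus. Cells positive for B220 and GFP were sorted from spleens of moribund mice. The immunised germinal centre B cells that the design text names as normal controls were not analysed here, so no value below is a change from normal B cells, and animal ages were not given in the sources used here.

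In B cells the route starts at the antigen receptor, whose kinases phosphorylate the cytoplasmic adaptor BCAP, the product of Pik3ap1. BCAP then recruits the regulatory subunit p85α, encoded by Pik3r1, which holds a class IA catalytic subunit, p110α, p110β or p110δ. The catalytic subunit makes the membrane lipid PIP3, AKT binds PIP3 and is activated, and the Inpp5d product SHIP1 converts the lipid by taking off a phosphate. The subunit p110δ, encoded by Pik3cd, is largely restricted to leukocytes and is the main class I isoform in B cell receptor signalling. The subunit p110γ, encoded by Pik3cg, is also rich in leukocytes and is activated by G protein-coupled receptors through regulatory partners of its own.

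The 3 libraries held 15022902 to 15141009 counts. No pair of libraries agreed within sampling noise (chi-square of counts per degree of freedom 83.3 to 91.8). The label of a B cell population was checked with marker genes in CPM (counts scaled to the library total). The 8 B cell markers summed to 5094, 2847 and 2810 CPM and each reached 10 CPM in every tumour, against 75.9, 50.4 and 103 CPM for 8 T cell markers. In bulk RNA, fewer cells of a type and less RNA per cell cannot be told apart. The labels do not state outright that the tumours came from unrelated animals, so tests across them measure only the spread between these samples. The libraries carry no molecular identifiers, and the counting intervals given below cover counting error alone.

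All 9 genes were detected in every tumour, and Pik3ap1, Akt1 and Inpp5d were the most abundant per unit of transcript length. Length was removed by dividing counts by the union of annotated exons, scaled alike in every library (TPM). The levels ran from Pik3ap1 at 229 ± 31.5 TPM (SD, n = 3) through Akt1 at 219 ± 58.9, Inpp5d at 130 ± 39.2, Pik3cd at 67.6 ± 25.2, Pik3cg at 24.6 ± 10.2, Pik3ca at 23.7 ± 4.96, Akt2 at 20.1 ± 1.93 and Pik3r1 at 10.8 ± 4.96 TPM to Pik3cb at 2.82 ± 0.747 TPM. Pik3ap1 and Akt1 were not separated, since Pik3ap1 was the higher in 2 of 3 tumours. Pik3cg exceeded Pik3ca in 1 of 3 tumours, and these neighbours did not differ beyond their spread either. Inpp5d stood above Pik3cd, and Pik3ca above Akt2, in 3 of 3 tumours each, although the ranges of each pair overlapped across tumours. The order of Pik3ca and Akt2 depends on the length used. Union exons span 9088 nt for Pik3ca and 7131 nt for Akt2, but the longest annotated transcripts span 8917 and 4544 nt. The order of levels was not recomputed with other lengths. The steps from Akt1 to Inpp5d, Pik3cd to Pik3cg, Akt2 to Pik3r1 and Pik3r1 to Pik3cb showed no overlap.

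**Figure D1:**
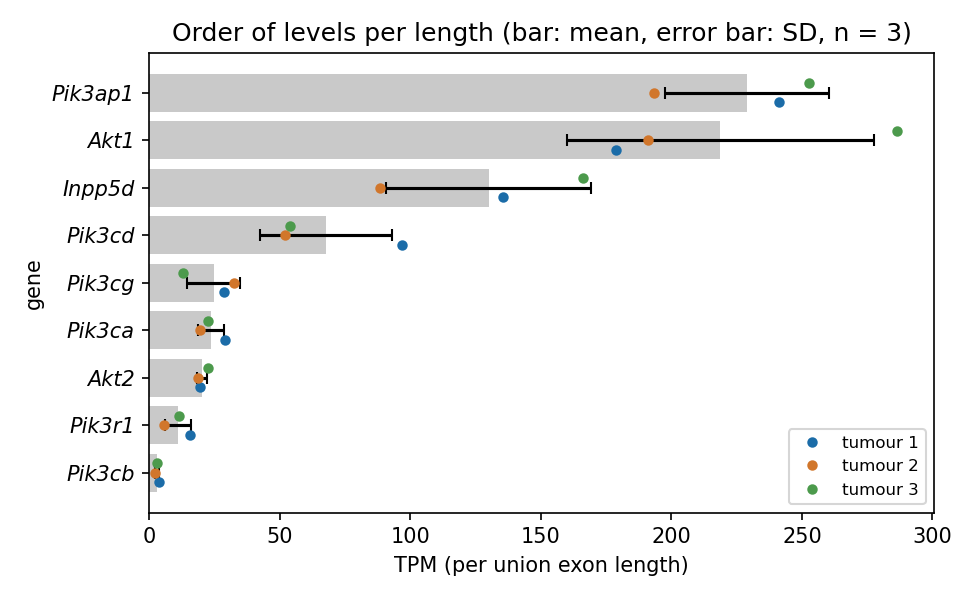
Level of each gene in TPM (counts divided by union exon length and scaled alike in every library); grey bars give the mean, error bars the SD over 3 tumours, and points the single tumours. Pik3ap1 and Akt1 lead with overlapping points, and Pik3cb lies at the bottom with 2.82 TPM.

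The median of the 9 gene means was 24.6 TPM, close to the 22.4 TPM of all genes tested. In CPM, which is not corrected for length, 8 of the 9 genes reached 10 CPM in every tumour, against 20.7% of all listed genes, and Pik3cb was the exception. Among genes tested, 94.9% had a lower mean TPM than Pik3ap1, 94.6% a lower one than Akt1, 89.3% a lower one than Inpp5d and 78.8% a lower one than Pik3cd. Pik3cb stood above 10.4% of genes tested. The 9 genes were thus spread widely over the abundance scale of the tumours.

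Promoter windows are given for the members whose start sites are best anchored. RefSeq (GRCm38.p6) windows matched 9 of 9 genes, with 17 start sites, and the start lay at the 5′ end of the GENCODE gene for 6 of them. The 250 bases before that start are shown for Pik3ap1 and Inpp5d, which lie high in the order of levels per length, and for Pik3r1, which lies low, because these were the windows among the 6 that held GAGGAA or repeated GGGCGG. Capitals mark each GAGGAA, a purine-rich word that ETS factors such as PU.1 bind, and each GGGCGG, the GC box of SP factors, searched on both strands. No matches overlapped. Pik3ap1 lies at chr19:41385103-41385352 (reverse strand), Inpp5d at chr1:87620062-87620311 (forward strand) and Pik3r1 at chr13:101768218-101768467 (reverse strand), each read 5′ to 3′ along the gene.
Pik3ap1: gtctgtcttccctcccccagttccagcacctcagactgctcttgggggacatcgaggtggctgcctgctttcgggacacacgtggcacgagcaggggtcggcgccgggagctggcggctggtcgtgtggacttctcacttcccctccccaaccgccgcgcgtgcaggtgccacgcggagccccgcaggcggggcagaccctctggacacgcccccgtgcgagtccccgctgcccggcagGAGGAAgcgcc
Inpp5d: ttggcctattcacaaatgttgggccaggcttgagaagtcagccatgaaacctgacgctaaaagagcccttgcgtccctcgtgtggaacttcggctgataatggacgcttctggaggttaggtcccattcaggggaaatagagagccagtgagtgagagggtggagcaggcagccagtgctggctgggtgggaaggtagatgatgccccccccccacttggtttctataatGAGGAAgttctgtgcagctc
Pik3r1: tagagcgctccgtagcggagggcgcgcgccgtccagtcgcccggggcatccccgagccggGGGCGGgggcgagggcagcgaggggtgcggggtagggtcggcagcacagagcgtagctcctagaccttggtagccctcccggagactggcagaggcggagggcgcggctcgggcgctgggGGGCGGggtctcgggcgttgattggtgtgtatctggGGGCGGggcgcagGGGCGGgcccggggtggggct
The windows of Pik3ap1 and Inpp5d held 1 GAGGAA each and no GGGCGG, whereas that of Pik3r1 held 4 GGGCGG and no GAGGAA. The Akt2 window at its matching start held 1 GGGCGG, and those of Akt1 and Pik3cg held neither word. Other listed starts of the same genes differed, with 4 GGGCGG before the second Akt1 start and 2 GAGGAA before the second Pik3cg start. The window before the second Pik3r1 start held neither word, and guanine and cytosine made up 42.4% of it. Over all 32851 windows of this length, 23.3% held GAGGAA, 32.7% held GGGCGG and 16.7% held 2 or more GGGCGG. Guanine and cytosine made up 71.2% of the Pik3ap1 window, 54.4% of the Inpp5d window and 76.4% of the Pik3r1 window, against a median of 52.4%. A match describes letters only, and which start sites the tumours used was not measured.

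Among the catalytic subunits, Pik3cd (ENSMUSG00000039936.18, chromosome 4, 149649168 to 149702571, reverse strand) had the highest level. It had 2862, 1712 and 1714 counts in tumours 1, 2 and 3, or 189, 114 and 114 CPM. Tumour 1 was high and the other tumours were nearly equal, a 1.66-fold range. Per length the levels were 96.6, 52.0 and 54.0 TPM.

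Pik3ca, which encodes the widely expressed subunit p110α (ENSMUSG00000027665.13, chromosome 3, 32397671 to 32468486, forward strand), had 82.6, 61.6 and 69.0 CPM. Its 1.34-fold range was among the narrower ones of the 9 genes. Pik3cb, which encodes p110β (ENSMUSG00000032462.14, chromosome 9, 99036654 to 99140621, reverse strand), had 121, 78 and 104 counts, or 7.99, 5.19 and 6.90 CPM. It was the scarcest gene of the set in each tumour. Every tumour had more Pik3cd than Pik3ca per length, and their mean difference in log2(TPM + 1) was 1.43 ± 0.24, or 2.70-fold. Its difference from Pik3cb was larger, at 4.12 ± 0.29 on the same scale, with the same sign in 3 of 3 tumours. The added 1 understates this change because Pik3cb is low, and the ratio of TPM itself was 27.2, 25.2 and 18.9.

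Pik3cg (ENSMUSG00000020573.17, chromosome 12, 32173473 to 32208659, reverse strand) had the widest range of the 9 genes. It had 1142, 1429 and 554 counts in tumours 1, 2 and 3, or 75.4, 95.1 and 36.8 CPM. Tumour 3 was low and tumour 2 high, a 2.59-fold range. Its edgeR adjusted p in the test of variability between tumours was 0.782 (unadjusted 0.0458), with adjusted values of 0.693 to 0.986 over the alternatives, so it was not called. No other member was under 0.05 unadjusted, a mark that 6.27% of all genes tested reached. Pik3cd lay above Pik3cg in 3 of 3 tumours, with a mean difference in log2(TPM + 1) of 1.46 ± 0.69, or 2.74-fold. The ratio of their TPM was 3.37, 1.61 and 4.17, so the subunits came closest in tumour 2.

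Because Pik3cg is also expressed by myeloid, T and natural killer cells, markers of other cells are given beside it. Of 8 macrophage and monocyte markers 5 reached 1 CPM in every tumour, and their summed level was 167, 208 and 161 CPM in tumours 1, 2 and 3. The defining marker Csf1r had 2.64, 3.39 and 1.99 CPM. The macrophage marker Lyz2 was called by the variability test, with 7.73, 53.8 and 4.11 CPM (edgeR adjusted p = 0.0372). This call, like those of Hbb-bs and Jchain below, was absent under the alternative settings that called 0 genes, listed at the end. Natural killer and cytotoxic markers reached 1 CPM for 2 of 5 genes, with sums of 18.8, 27.2 and 6.30 CPM, and the defining marker Ncr1 had 0, 1 and 1 counts. These sums were highest in tumour 2 and lowest in tumour 3, as was Pik3cg, but single markers did not all follow them. Cd68, the largest part of the macrophage sum, had 142, 118 and 144 CPM and was lowest in tumour 2. C1qa, C1qb, Ly6c2 and the cytotoxic gene Gzmb were highest in tumour 2, as were Csf1r and Lyz2. Adgre1, Itgam and the cytotoxic gene Prf1 were highest in tumour 1, as were Gzma and Klrb1c, both under 1 CPM throughout. These genes are named after their values were seen. The part of these cells in the Pik3cg level was not tested. T cell markers reached 1 CPM for 7 of 8 genes, with sums of 75.9, 50.4 and 103 CPM, and the defining marker Cd3e stayed between 1.65 and 2.13 CPM. Unlike Pik3cg, the T cell sum was lowest in tumour 2 and highest in tumour 3. By mean CPM its largest parts were Cd8b1, with 25.2, 18.0 and 56.1 CPM, and Lck, with 31.8, 11.3 and 9.55 CPM. Neutrophil markers reached 1 CPM for 0 of 6 genes (sums of 2.92 to 55.2 CPM, S100a8 at 0.663 to 7.07 CPM) and dendritic cell markers for 2 of 5 (8.06 to 17.7 CPM, Flt3 at 2.64 to 10.5 CPM). Erythroid markers did so for 2 of 4, with sums of 5.22, 18.0 and 113 CPM, and Hbb-bs was called (edgeR adjusted p = 0.0234). That sum, like the T cell sum, was highest in tumour 3, as were Pik3ap1, Inpp5d, Akt1 and Akt2. The part of either cell type in the levels of these genes was not tested. Plasma cell markers reached 1 CPM for 3 of 4 genes, with sums of 139, 567 and 308 CPM, and Jchain was called (edgeR adjusted p = 0.0363). Most of these sums came from Jchain, with 36.3, 396 and 236 CPM, and Xbp1, with 95.6, 151 and 62.0 CPM. Prdm1, which is floxed in these mice, had 6.54, 19.2 and 9.49 CPM, and Sdc1 had only 0.332 to 0.466 CPM. Stromal and endothelial markers reached 1 CPM for 1 of 4 genes, with sums of 131 to 157 CPM. Nearly all of that was Pecam1, at 130 to 155 CPM, and Col1a1, Kdr and Cdh5 had at most 1.65 CPM. The B cell sum was 5094, 2847 and 2810 CPM, highest in tumour 1, where Pik3cd was highest as well. Whether that has a part in the Pik3cd level was not tested.

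**Figure D2:**
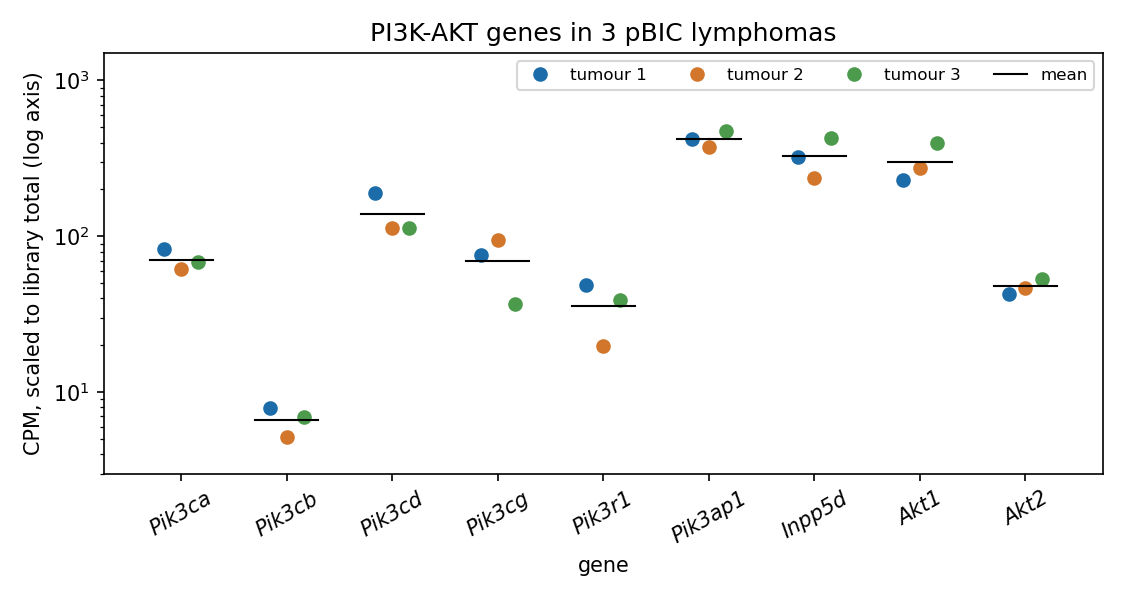
CPM (log axis) of the 9 genes in each of 3 tumours; points are tumours and black lines the mean. Pik3cg is lowest in tumour 3 at 36.8 CPM, Pik3r1 is lowest in tumour 2 at 19.8 CPM, and Akt1 is highest in tumour 3 at 394 CPM.

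Within the class I catalytic genes, Pik3cd held the largest share of length-corrected transcripts in every tumour, 61.2%, 49.2% and 58.5% of their summed TPM (56.3% ± 6.27, SD, n = 3). Pik3cg held 18.1%, 30.5% and 14.0%, Pik3ca 18.4%, 18.3% and 24.4%, and Pik3cb 2.25%, 1.95% and 3.09%. The share of Pik3cg in tumour 2 was the highest of its 3 values, and that of Pik3cd the lowest. As shares of raw counts, Pik3cd held 53.2%, 41.3% and 50.2%. The exact 95% Clopper-Pearson limits were 51.9 and 54.6% for tumour 1, 39.8 and 42.8% for tumour 2, and 48.5 and 51.9% for tumour 3. The interval of tumour 2 did not overlap the other intervals.

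**Figure D3:**
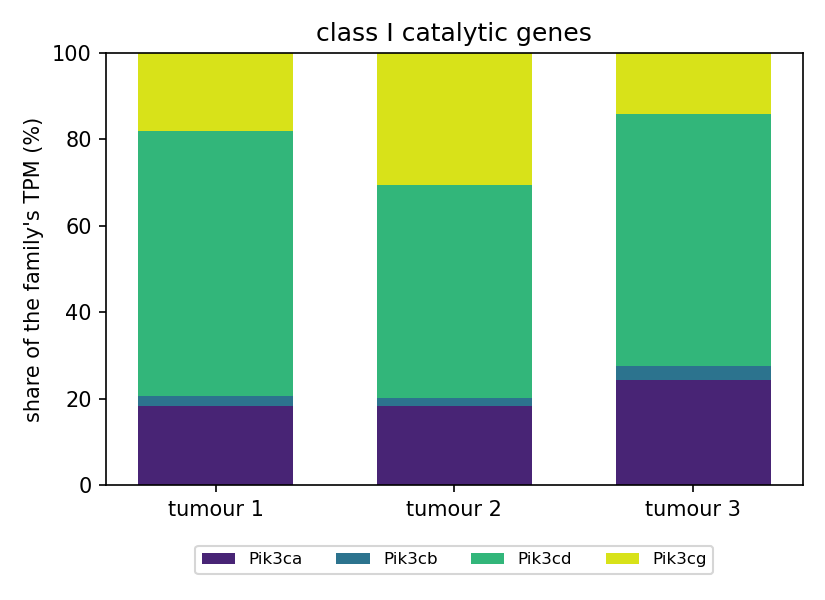
Share of the summed TPM (%) held by each class I catalytic gene in tumours 1, 2 and 3; stacked bars reach 100%. Pik3cd leads in every tumour with 49.2% to 61.2%, and Pik3cg takes its largest share, 30.5%, in tumour 2.

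The regulatory subunit gene Pik3r1 (ENSMUSG00000041417.15, chromosome 13, 101680563 to 101768217, reverse strand) lay per length below Pik3cd and Pik3ca and above Pik3cb, the catalytic subunit genes whose products its own product binds. It had 738, 297 and 585 counts, or 48.7, 19.8 and 38.8 CPM. Tumour 2 was low, a 2.47-fold range, and the edgeR adjusted p was 0.981. Per length, Pik3r1 lay below the sum of Pik3ca, Pik3cb and Pik3cd, with a mean difference of -3.06 ± 0.41 in log2(TPM + 1), lower in 3 of 3 tumours. As a ratio of TPM, it stood at 0.120, 0.0763 and 0.144 of that sum. The gene has 7 annotated transcripts and encodes shorter regulatory proteins besides p85α, which counts per gene do not separate. Pik3r2, the gene of the second p85 protein, had 61.7, 47.8 and 64.2 TPM, above Pik3r1 in every tumour.

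Pik3ap1 (ENSMUSG00000025017.10, chromosome 19, 41272377 to 41385102, reverse strand) had 6358, 5660 and 7133 counts, or 420, 377 and 473 CPM. The tumours lay close together, in a 1.26-fold range. Per length its levels were 241, 193 and 253 TPM, the highest of the 9 genes in tumours 1 and 2.

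Inpp5d (ENSMUSG00000026288.14, chromosome 1, 87620312 to 87720507, forward strand) encodes SHIP1, a phosphatase of blood cells that restrains B cell receptor signalling. It had 4869, 3533 and 6407 counts, or 322, 235 and 425 CPM. Tumour 3 was the highest and tumour 2 the lowest, a 1.81-fold range with an edgeR adjusted p of 0.997. Per length it had 135, 88.4 and 166 TPM.

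Akt1 (ENSMUSG00000001729.14, chromosome 12, 112653821 to 112674884, reverse strand), the broadly expressed AKT kinase, had 3464, 4121 and 5946 counts, or 229, 274 and 394 CPM. Its level was highest in tumour 3, a 1.72-fold range. Akt2 (ENSMUSG00000004056.15, chromosome 7, 27591552 to 27640826, forward strand), known best for insulin-stimulated glucose uptake, had 42.9, 46.9 and 53.5 CPM. It had the narrowest range of the 9 genes, 1.25-fold, and in CPM its order of tumours was that of Akt1. The difference of Akt1 from Akt2 in log2(TPM + 1) was 3.35 ± 0.24, or 10.2-fold, and had the same sign in 3 of 3 tumours. The pseudogene Akt2-ps had 3, 3 and 8 counts.

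**Figure D4:**
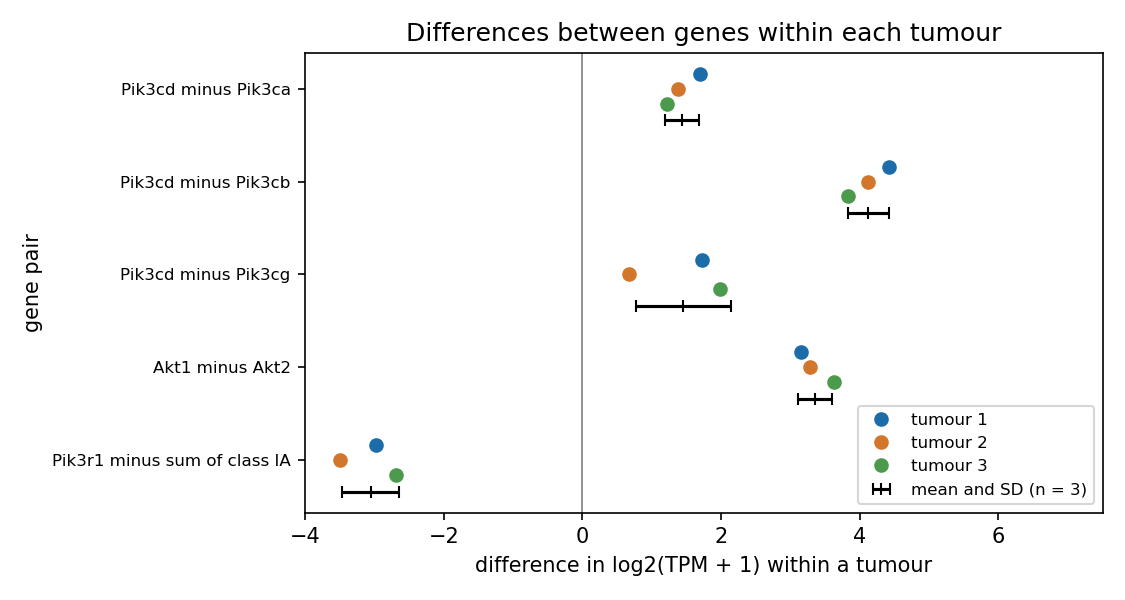
Differences between genes in log2(TPM + 1), each computed within a tumour; points are tumours, black bars the mean and SD over 3 tumours, and the grey line marks 0. All 5 differences keep their sign in every tumour, and only Pik3r1 minus the class IA sum is below 0.

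Each of the 5 differences between genes given here kept its sign in 3 of 3 tumours. The exact two-sided test by flipping signs gave each p = 0.25, which with 3 tumours is its minimum, and 0.292 after Benjamini-Hochberg adjustment over the 7 differences computed. No difference between genes could therefore pass the threshold of 0.05 with these samples.

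None of the 9 genes was called in the edgeR test of variability between tumours, which called 16 of 11478 genes, 0.139% of those tested. All 9 entered that test, and the limma version of it called 0 of them as well, each with 1 at an unadjusted p under 0.05. The highest tumour exceeded the lowest by more than 2-fold for 2 of 9 genes, Pik3cg and Pik3r1, against 29.2% of all genes tested. The median range was 1.66-fold for the 9 genes and 1.63-fold for all genes tested. Both the count and the median lay near those of all genes. Leaving out any 1 tumour left 1 of 9 genes over 2-fold, Pik3cg without tumour 1 or tumour 2 and Pik3r1 without tumour 3. A range over fewer tumours cannot widen, so this count could not rise, and the matching share of all genes was not computed. With a tumour left out, the edgeR test called 0 genes without tumour 1, 0 without tumour 2 and 11 without tumour 3, none of them a member.

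**Figure D5:**
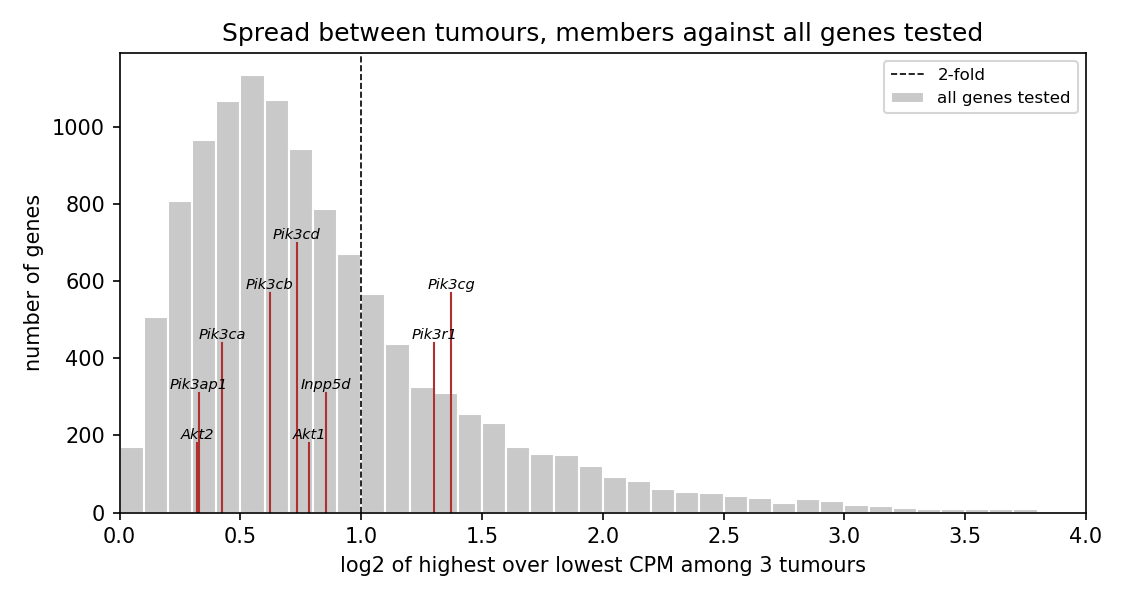
Spread between tumours, as log2 of the highest over the lowest CPM; grey bars count all 11478 genes tested (values above 4 are not drawn), red lines mark the 9 genes (their heights only space the names), and the dashed line marks 2-fold. Pik3r1 and Pik3cg lie beyond 2-fold, and the other members lie below it.

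The tumours did not rank the genes alike. Tumour 1 had the highest value for 4 of the 9 genes, tumour 2 for 1 and tumour 3 for 4, against 35.4%, 30.2% and 34.5% of all genes tested. Pik3ca, Pik3cb, Pik3cd and Pik3r1 peaked in tumour 1, and Pik3ap1, Inpp5d, Akt1 and Akt2 in tumour 3. The lowest value fell in tumour 1 for 2 genes, in tumour 2 for 5 and in tumour 3 for 2, against 29.6%, 39.4% and 30.9% of genes tested.

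Gene length moved with these ranks. Of tested genes with a union exon length within that of the members (4098 to 10079 nt), 48.5% were lowest in tumour 2 and 44.7% highest in tumour 1. Among genes shorter than every member the shares were 26.0% and 20.9%, and among longer genes 66.1% and 66.3%. Once a trend on length was taken out of each library, which was decided after seeing the data, Pik3r1 had 41.8, 22.6 and 39.4 CPM, a 1.85-fold range that no longer exceeded 2-fold. Pik3cg then had 66.9, 105 and 37.2 CPM, a 2.84-fold range. Pik3ca narrowed to 72.3, 69.1 and 69.9 CPM. Inpp5d and Akt1 remained highest in tumour 3, at 428 and 395 CPM. After this correction 26.2% of genes tested exceeded 2-fold.

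The genes whose levels were most like those of Pik3cd were Tgfbr2, Lacc1 and Chd7. Likeness was the largest absolute difference in log2 CPM from Pik3cd over the 3 tumours, among 10164 tested protein-coding genes with a characterised symbol. Tgfbr2, a receptor for transforming growth factor β, had 191, 121 and 113 CPM, with a largest difference of 0.09. Lacc1 had 195, 107 and 121 CPM and a largest difference of 0.09, and the chromatin remodeller gene Chd7 had 176, 118 and 121 CPM and one of 0.10. In all, 26 genes lay within 0.25 of Pik3cd.

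Other genes of the route were read from 9 lists holding 67 genes. Of these 57 entered the variability test and 51 were at 10 CPM or more throughout. Their median level was 20.9 TPM. None was called by edgeR or by limma, against 0.139% of all genes tested by edgeR. At an unadjusted p under 0.05 there were 9 of 57 by edgeR, against 6.27% of all genes tested, and 8 by limma. In 18 of 57 the range exceeded 2-fold, against 29.2%. Tumour 2 was the lowest for 33 of the 57 genes, against 39.4% of all genes tested, and tumour 1 the highest for 36, against 35.4%. These ranks moved with gene length, as given above. With the length trend removed, 7 of the 57 had an unadjusted edgeR p under 0.05, against 568 of 11478 genes tested. The part of length in the ranks and ranges of the 57 genes was not tested.

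Among class I regulatory genes, Pik3r2 led at 57.9 ± 8.82 TPM. Pik3r3, which encodes the regulatory subunit p55γ, had 16.9, 2.91 and 9.57 TPM and was low in tumour 2 (edgeR adjusted p = 0.636). Pik3r6, a partner of p110γ, had 0.481 ± 0.244 TPM. The class III kinase gene Pik3c3, which acts in endosome traffic and autophagy, had 41.1 ± 3.26 TPM and its partner Pik3r4 16.5 ± 6.21 TPM. The class II gene Pik3c2b had 20.7, 5.25 and 13.3 TPM, again with tumour 2 the lowest. Pik3c2g had no count in any tumour, below the limit of 3 counts per library that a count of 0 allows.

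Among phosphatases of the lipid signal, the gene Inppl1 (SHIP2) had 31.4 ± 11.0 TPM. Pik3ip1, which encodes a membrane inhibitor of the catalytic subunit, had 28.3, 11.5 and 28.1 TPM. Inpp4b, a phosphatase acting after SHIP1, had 2.75, 0.975 and 0.181 TPM and was the scarcest of that list. Receptor inputs were led by the antigen receptor chains Cd79b, with 904, 658 and 449 TPM, and Cd79a, with 828, 328 and 337 TPM. Both were highest in tumour 1. Irs2, an adaptor of insulin and cytokine receptors, had 34.9, 5.68 and 17.8 TPM (edgeR adjusted p = 0.322), and Irs1 had no count. The lipid-binding adaptor genes Plekha2, Plekha1 and Dapp1 had 98.4 ± 28.4, 34.9 ± 4.14 and 27.5 ± 7.26 TPM.

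Among the enzymes that act on AKT, Mapkap1, a subunit of the mTORC2 complex, led at 55.7 ± 5.63 TPM, and the kinase gene Mtor had 28.4 ± 9.10 TPM. Tcl1, the gene of an AKT coactivator, had no count. In the mTORC1 arm, the translation repressor genes Eif4ebp2 and Eif4ebp1 led with 148 ± 33.0 and 112 ± 80.6 TPM. Eif4ebp1 was high in tumour 2, with 63.1, 205 and 68.5 TPM (edgeR adjusted p = 0.255), and was called with no filter on low counts. Deptor, the gene of an mTOR inhibitor, was the scarcest of the arm at 0.242 ± 0.0990 TPM.

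Of 8 AKT substrate genes, Gsk3a had 90.7 ± 11.7 TPM, Mdm2 43.2 ± 2.59 TPM and Bad 12.4 ± 1.38 TPM. Foxo4, the widest-ranging of them, had 15.4, 8.73 and 20.0 TPM. Genes that FOXO factors can activate were led by Klf2, with 391, 154 and 608 TPM, and Ccr7, with 155 ± 19.7 TPM. Klf2 was high in tumour 3 and low in tumour 2 (edgeR adjusted p = 0.497), and Rag2 had no count in any tumour.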

How the data were processed

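Polyadenylated RNA of sorted B220+GFP+ cells was sequenced as single reads of 50 nt. The authors deposited whole-number counts of reads for each gene, in a separate table for every tumour. Per the submitters' processing notes, FastQC, STAR 2.5.2b and featureCounts 1.6.0 were used with mm10, and no settings are listed. Strand use, annotation release and the handling of reads mapping to several places were not stated in the sources used here. No exon base of the 9 members overlaps an exon of another gene in GENCODE release M21 (GRCm38, the assembly of mm10). Positions (1-based) and lengths were taken from that release by gene ID. That release gave 37536 genes a length and 110 none.

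Counts were scaled to the library total (CPM) and, per length, to TPM with Python 3.11.15 and pandas 2.3.3. Variability between tumours was tested over the whole table with an intercept-only edgeR 4.0.16 fit (R 4.3.3, TMM factors 1.02, 0.959 and 1.02, filterByExpr). The residual deviance, divided by the robust trended prior variance, was referred to the upper tail of F (2 and 15.8 degrees of freedom). Its p-values were Benjamini-Hochberg adjusted over 11478 genes, and 0.05 was the threshold. A call means more spread among tumours than is usual at that abundance. The procedure was tested on simulated data. Alternatives used limma 3.58.1, DESeq2 1.42.0 size factors, other filters, pseudocounts and lengths, and leaving out each tumour. Differences between genes used a two-sided exact sign-flip test, adjusted over 7, of which 5 are given. The other 2, the shares within the AKT family and single values of some listed genes are not reported here. Tumour numbers follow accession order. Genes other than members were named by rank and range within their list: the 2 highest and the lowest by mean TPM, the widest range at 10 CPM or more, and partners in a difference. Members, lists and rules were chosen with earlier results of these data known.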

Additional observations from a re-analysis of the deposited data

How the results depend on the processing

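Alternative values computed for the results given here numbered 209. Of these, 194 kept their direction and their side of the threshold or moved by less than the spread between tumours. The other 15 moved further, and none reversed. This tally is not a measure of stability, because many of the values could hardly differ. With 3 tumours, leaving a tumour out cannot move a mean level, difference or share by as much as its SD. Many other values were adjusted p-values of the members, all far above the threshold. The 5 differences between genes kept their sign with lengths of the longest annotated transcript and with no division by length. Each difference had the same sign in 3 of 3 tumours. Pseudocount 0.1 and leaving out a tumour therefore could not change it.

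The count of genes called by the variability test depended on the setting. Against 16, edgeR called 164 with no filter beyond 1 count in any tumour, 0 with a mean count of at least 10, 0 with library totals only and 0 with the length trend removed. The limma version called 8. Leaving out 1 tumour gave 0 to 11 calls, with 0 without tumour 1 and 0 without tumour 2. The cause of these shifts was not tested. None of the 9 members was called under any of these settings. Among other genes of the route, 2 were called with no filter, Cr2 and Eif4ebp1, named after their values were seen.

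Members with more than a 2-fold range numbered 1 in place of 2 without tumour 1, without tumour 2, without tumour 3 and with the length trend removed. With a tumour left out, this count could only stay or fall. Without division by length, the share of Pik3cd among class I catalytic genes was 48.3%.

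The number of tumours limits every test, and depth limits the listed genes with few or no counts, such as Deptor with 6 to 14. The scarcest member, Pik3cb, had 78 counts or more. No paired analysis was possible because there is 1 group. No normal B cells were analysed here.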
